A study of Mus musculus with 18 samples.

Results

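The meiotic cohesin and telomere tethering genes are 10 of the 22657 genes in the deposited expression table. They were taken by name, as the rows whose NCBI gene number carries the symbol Rec8, Rad21l, Stag3, Smc1b, Sgo2a, Terb1, Terb2, Majin, Sun1 or Kash5, and the selection rule uses no measured value, although the list was drawn up with earlier results of these data known. Each number matched 1 row. All 10 passed the filter for testing, which was at least 1 FPKM in at least 3 samples, along with 15790 genes in all. FPKM is a count of sequenced fragments scaled by transcript length and by the mapped fragments of the library. Rad21l, Terb2 and Majin reached 1 FPKM only in samples without busulfan, so they passed through the groups in which they were high.

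The 18 samples were testes of male ICR mice, an outbred stock, cultured for 48 h in medium with 10% serum, in 6 groups of 3. A0, A10 and A50 were testes of mice that got no busulfan, cultured with 0, 10 or 50 μg/mL alginate oligosaccharides (AOS), which are short sugar chains cut from the alginate of brown seaweed. In B0, BA10 and BA50 the donor mice had received busulfan once at 3 weeks of age, at 40 μg per g body weight, and the AOS concentrations were again 0, 10 and 50 μg/mL. Busulfan, a DNA alkylating agent used in chemotherapy, depletes proliferating germ cells. All testes were taken 2 weeks after the injection or at the matching age, so busulfan acted in the animal and AOS acted only in the dish. The methods state 6 testes per treatment and 3 repeats, and nothing says which testes stand behind each sample, so the spread between the 3 samples of a group may be in part technical.

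In meiosis, replicated chromosomes are held together and folded into loops by cohesin, a ring made of SMC1 and SMC3 proteins, closed by a kleisin and joined by a STAG subunit. Germ cells make their own versions of these parts: the kleisins REC8 and RAD21L, the STAG protein STAG3 and the SMC1 protein SMC1B. Shugoshin SGO2 guards the cohesin at centromeres until the second division. Early in meiotic prophase the chromosome ends are tethered to the nuclear envelope by TERB1, TERB2 and MAJIN, where SUN1 in the inner membrane and KASH5 in the outer membrane join them to dynein, a motor that moves the chromosomes so that homologous partners can meet.

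Positions are those of RefSeq on mouse build GRCm38.p6, and all 10 are protein-coding genes. The cohesin genes are Rec8 on chr14:55618002-55625395, Rad21l on chr2:151644366-151670622, Stag3 on chr5:138272514-138312397 and Smc1b on chr15:85064689-85131957. Sgo2a lies on chr1:57985340-58026277. Terb1 lies on chr8:104446718-104509887, Terb2 on chr2:122186272-122206393 and Majin on chr19:6184345-6224230. Sun1 is on chr5:139200564-139249839 and Kash5 on chr7:45183619-45204919. Of the exonic bases of Sgo2a, 35.0% lie opposite exons of Kctd18, and no strand marking is described for the libraries, so how reads there were assigned is unknown. Kctd18 itself had 8.99 ± 0.504 FPKM in A0 and 6.94 ± 0.888 FPKM in B0 (SD, n = 3). Sun1 shares 4.0% of its exonic bases with an antisense transcript, and no exon of the other 8 overlaps another gene. Short stretches are shared with near copies, 2.68% of the 50-base words of Sgo2a with Sgo2b, which was listed at no more than 0.01 FPKM in any sample, and 3.24% of those of Majin with the gene model Gm6610.

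The RefSeq promoter table held the bases before an annotated transcript start for 8 of the 10 genes, in 10 windows of 250 bases. Terb2 and Majin had no entry. A transcript start need not be the end of the gene given above, and 4 of the 10 windows, that of Rad21l, that of Stag3 and 1 each of Sgo2a and Sun1, lie within the span of their gene. The Rad21l window precedes a transcript start 2089 bases inside the gene, and the Stag3 window one 7995 bases inside. The Rec8 window precedes one 164 bases inside, so it lies in part within the gene. The Rec8 stretch printed below reaches into the gene and ends 129 bases short of that transcript start. Sequence before a transcript start is shown for the kleisins Rec8 and Rad21l and for Smc1b, because the kleisins gave the most unlike values and Smc1b resembled Stag3. Only the longest stretch free of annotated exons is printed, from chr14:55617916-55618036 for Rec8 on the plus strand, chr2:151668534-151668783 for Rad21l on the minus strand and chr15:85131965-85132077 for Smc1b on the minus strand, which is the gap between Smc1b and the divergent gene Ribc2. Capitals mark CCAAT or its reverse complement.
Rec8: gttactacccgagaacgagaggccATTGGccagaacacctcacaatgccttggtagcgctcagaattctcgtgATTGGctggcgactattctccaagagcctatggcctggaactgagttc
Rad21l: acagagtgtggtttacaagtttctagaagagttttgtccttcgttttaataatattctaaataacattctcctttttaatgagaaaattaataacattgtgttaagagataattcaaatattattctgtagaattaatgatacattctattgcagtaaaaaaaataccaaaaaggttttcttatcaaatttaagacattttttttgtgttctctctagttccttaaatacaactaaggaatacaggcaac
Smc1b: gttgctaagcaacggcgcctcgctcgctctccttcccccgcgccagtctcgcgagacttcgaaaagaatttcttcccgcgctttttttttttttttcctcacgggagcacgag
The Rec8 window held 3 CCAAT matches, 2 of them in the stretch shown, and the Rad21l window held none. The windows also differed in base composition, with 25.6% G and C and 1 CpG in Rad21l, 56.0% and 10 in Rec8 and 58.0% and 25 in Smc1b. Over all 10 windows and both strands, CCAAT was found in 6 (33.8% of the 32851 windows of all genes) and GGGCGG in 4 (32.7%). The E-box CACGTG was found in 1, that of Stag3 (6.02%). CNCCTCAG, the letters bound by the meiotic regulators STRA8 and MEIOSIN, and AACNGTT, bound by MYB proteins, were found in none (6.42% and 3.8% of all windows). These are matches of letters, and none of the windows was tested for binding.

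Without busulfan the levels of the 10 genes spanned a wide range. Over the 9 samples without busulfan, the mean was 64.0 FPKM for Stag3, 44.7 for Smc1b, 23.6 for Sun1, 16.3 for Kash5, 11.2 for Sgo2a, 10.3 for Rec8, 5.30 for Terb1, 3.42 for Majin, 2.29 for Rad21l and 1.65 for Terb2. FPKM is scaled by transcript length, so these levels can be set side by side. The genes for STAG3 and SMC1B thus stood above those for the meiotic kleisins REC8 and RAD21L. The kleisin gene of somatic cells, Rad21, had a mean of 48.9 FPKM in A0, above the 35.4 of Smc1b. Within the telomere complex, Terb1 stood above Majin and Terb2.

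**Figure D1:**
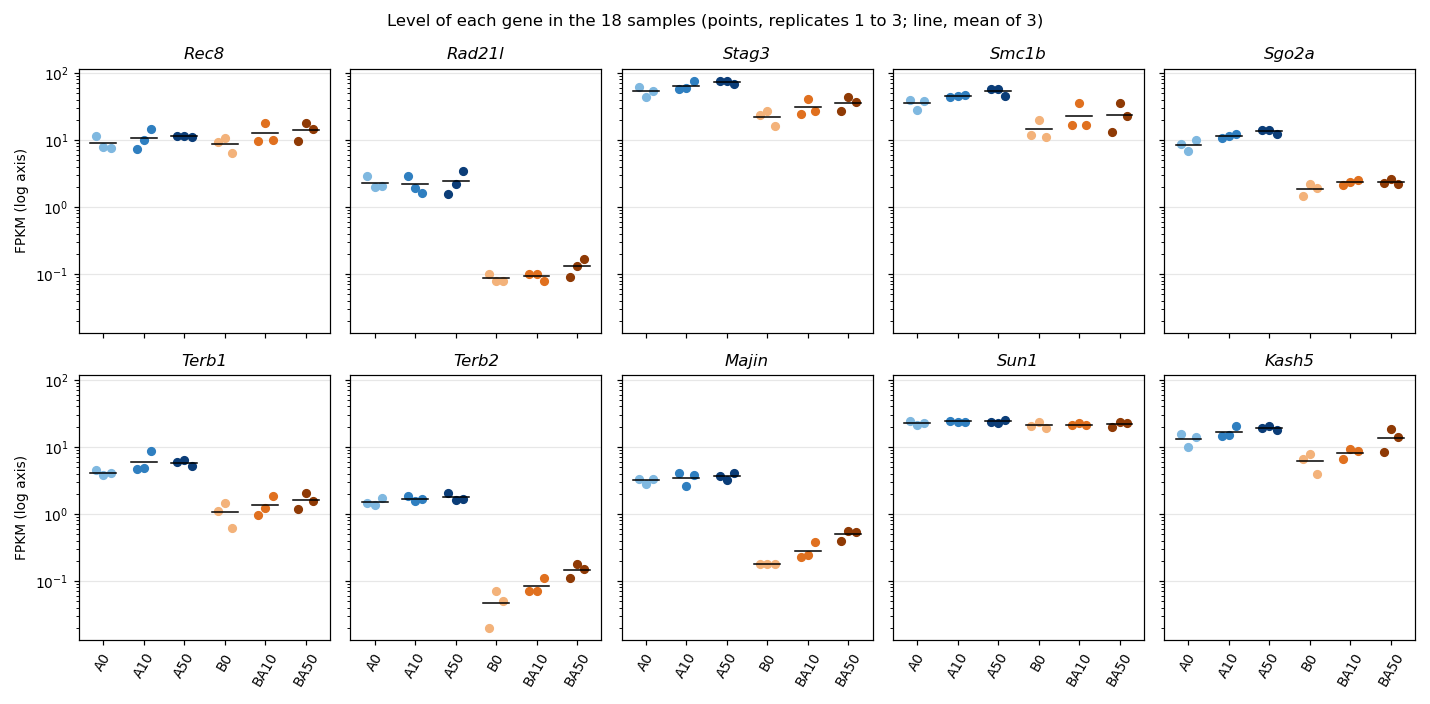
FPKM of each of the 10 genes on a log axis for the 6 groups, with 1 point per sample and a line at the mean of 3. Rad21l, Terb2 and Majin lie below 1 FPKM in all 9 busulfan samples (B0, BA10, BA50) and above it in the 9 others, while Sun1 stays between 19.2 and 25.33 FPKM and Rec8 between 6.48 and 18.15.

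The question of the busulfan comparison is how the drug given 2 weeks earlier left the RNA of these genes in the cultured testis. Busulfan samples had lower levels of 8 of the 10 genes, and the size of the difference ran from about 22-fold for Rad21l to 1.76-fold for Kash5 as ratios of the means of 9 samples. Rec8 and Sun1 stood apart from the rest. In the limma test with all 18 samples, at a Benjamini-Hochberg adjusted p under 0.05, 8 of the 10 were lower in B0 than in A0 and none was higher, where 12.3% of all genes tested were called lower. The count was 8 in BA10 compared to A10 (15.2% of all genes lower), 7 in BA50 compared to A50 (16.2%), and 8 for busulfan against no busulfan averaged over the AOS levels (24.8%). The median difference of the 10 genes in that average was -1.23 on the log2(FPKM + 1) scale, beside 0.01 over all genes tested. Rad21l, Terb2 and Majin were among the genes called lower in each of these comparisons. They had passed the filter only through samples without busulfan, so their busulfan calls and p-values, here and below, are not independent of that filter. In bulk RNA, fewer cells of a type and less RNA per cell cannot be told apart.

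The meiotic kleisins did not move together. RAD21L is the kleisin of early prophase, and Rad21l had 2.87, 2.02 and 2.05 FPKM in A0 but 0.10, 0.08 and 0.08 FPKM in B0. All 9 busulfan samples lay between 0.08 and 0.17 FPKM, and the other 9 between 1.56 and 3.43, so the ranges were far apart. The ratio of group means was 26.7 between A0 and B0, and the log2 difference was -1.60 (SE 0.18, adjusted p = 2.473e-05 by limma), a scale on which the change of such low values is understated. REC8 is the kleisin that stays to hold sister chromatids through the second division, and Rec8 had 11.49, 7.79 and 7.60 FPKM in A0 and 9.17, 10.55 and 6.48 FPKM in B0. These ranges overlap, and the log2 difference was -0.04 with a 95% interval from -0.64 to 0.57. With AOS, the Rec8 means were 12.6 ± 4.84 FPKM in BA10 and 14.1 ± 4.34 in BA50, beside 10.6 ± 3.69 in A10 and 11.3 ± 0.246 in A50 (SD, n = 3). Rec8 was the only gene of the 10 with a difference above 0 in the average over AOS levels, 0.14 (SE 0.16, adjusted p = 0.51 by limma). The number of Rec8 FPKM per Rad21l FPKM was 3.86 ± 0.148 in A0 and 102 ± 26.8 in B0.

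STAG3 is found in all meiotic cohesin rings and SMC1B in most of them. Stag3 had 61.17, 43.55 and 54.34 FPKM in A0 and 23.21, 27.26 and 16.04 FPKM in B0. Each of the 9 busulfan samples was below each of the other 9 for Stag3, although the highest of the former, 43.03 in BA50 replicate 2, was close to the lowest of the latter, 43.55 in A0 replicate 2. The log2 difference of B0 from A0 was -1.24 (SE 0.22, adjusted p = 0.00115 by limma). Smc1b had 39.65, 27.95 and 38.57 FPKM in A0 against 12.02, 19.95 and 11.17 in B0, a difference of -1.27 (SE 0.33, adjusted p = 0.0165 by limma). The adjusted p of Smc1b was between 0.065 and 0.0764 by limma without A0 replicate 1, A0 replicate 3, B0 replicate 1 or B0 replicate 3. The Smc1b values of BA10 replicate 2 and BA50 replicate 2, 35.33 and 36.02 FPKM, lay within the range of A0, so the busulfan and other samples overlapped over all AOS levels. For BA10 and A10 the Smc1b call rested on the choice of samples: its adjusted p was 0.042, and it exceeded 0.05 in 12 of the 18 fits that left out 1 sample, with 0.158 as the largest value, without BA10 replicate 1. Stag3 and Smc1b kept their proportion, with 1.5 ± 0.0821 Stag3 FPKM per Smc1b FPKM in A0 and 1.58 ± 0.308 in B0 (SD, n = 3). The ratio of Rec8 to Stag3 was 0.169 ± 0.0255 in A0 and 0.395 ± 0.00849 in B0, and its 9 values with busulfan were all above its 9 values without.

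The somatic subunits, which build cohesin in all dividing cells, give the background for these values. Rad21, the somatic kleisin, had 48.9 ± 3.29 FPKM in A0 and 50.2 ± 2.11 in B0, and Smc1a had 15.5 ± 1.55 and 15.4 ± 1.43 FPKM. Smc3, shared by somatic and meiotic rings, had 22.4 ± 0.969 FPKM in A0 and 19.6 ± 1.07 in B0 (log2 difference -0.18, adjusted p = 0.40 by limma). Stag1 was lower in B0, 10.1 ± 1.23 beside 15.4 ± 0.858 FPKM (log2 difference -0.57, adjusted p = 0.0196 by limma). Stag2, the other somatic STAG gene, had 22.6 ± 0.856 FPKM in A0 and 27.2 ± 2.81 in B0, with all B0 samples above all A0 samples (log2 difference 0.25, adjusted p = 0.105 by limma). As shares of the summed FPKM at each position of the ring, Stag3 made up 57.9% ± 4.88 of the STAG genes in A0 and 36.9% ± 6.30 in B0, a share that the Stag1 and Stag2 levels enter too, and Smc1b 69.1% ± 6.12 of the SMC1 pair in A0 and 47.4% ± 10.0 in B0. Rad21l made up 3.84% ± 0.711 of the kleisins in A0 and 0.147% ± 0.0246 in B0, while Rec8 made up 14.8% ± 3.22 and 14.7% ± 3.05. The Rec8 share overlapped between these groups and the shares of the other 3 did not.

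**Figure D2:**
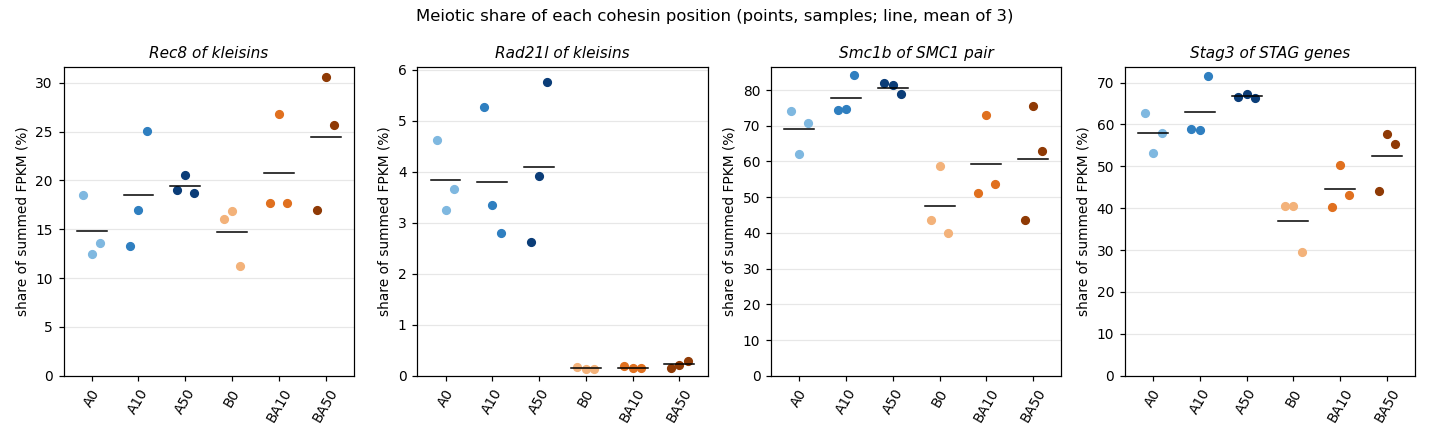
Share of Rec8 and Rad21l in the summed FPKM of Rec8, Rad21l and Rad21, of Smc1b in Smc1a and Smc1b, and of Stag3 in Stag1, Stag2 and Stag3, in percent, by group (points, samples; line, mean of 3). The Rad21l share is at least 2.62% in each sample without busulfan and at most 0.298% in each sample with it, while the Rec8 share spans 12.5% to 25.1% without busulfan and 11.2% to 30.6% with it.

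Sgo2a, the gene of the cohesin protector SGO2, had a difference of -1.92 in the average over AOS levels, the lowest of the 10 on the log2(FPKM + 1) scale only. With a pseudocount of 0.1 it was -2.29, and Rad21l, Terb2 and Majin were lower, as they were by ratios of means, in which Sgo2a was 5.11-fold lower with busulfan. Its values were 8.70, 6.96 and 9.95 FPKM in A0 and 1.48, 2.21 and 1.94 FPKM in B0, with all 9 busulfan samples between 1.48 and 2.63 and the other 9 between 6.96 and 14.04. The log2 difference was -1.73 (SE 0.13, adjusted p = 2.543e-07 by limma) for B0 and A0 and -2.10 (SE 0.13) for BA50 and A50, a ratio of means of 5.70. The opposite-strand gene Kctd18 went from 8.99 to 6.94 FPKM in B0, and how many reads the pair shared was not tested. Of 11 partners at the centromere, 8 were lower and 3 higher with busulfan over all AOS levels, with a median of -0.71. Of the 15790 genes tested, 3921 were called lower in this average (24.8%) and 2097 higher. Meikin, which works with SGO2 at meiotic centromeres, had a log2 difference of -1.32 (SE 0.15), Bub1 of -1.01 (SE 0.10), Incenp of -0.94 (SE 0.04) and Aurkb of -0.89 (SE 0.06).

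The 3 telomere attachment genes had at most 1.46 FPKM in any B0 sample. Majin, which anchors the complex in the inner nuclear membrane, had 3.36, 2.78 and 3.30 FPKM in A0 and 0.18 in each B0 sample. Terb2, which links MAJIN to TERB1, had 1.46, 1.36 and 1.72 FPKM in A0 and 0.02, 0.07 and 0.05 in B0. Terb1, which binds the telomeric protein TRF1, had 4.53, 3.74 and 4.09 FPKM in A0 and 1.10, 1.46 and 0.62 in B0. For each of the 3 genes all 9 busulfan samples lay below all 9 others, which held for 6 of the 10 genes in all, with Rad21l, Stag3 and Sgo2a (9.66% of all genes tested showed this order). The ratios of the A0 to the B0 mean were 17.5 for Majin, 32.4 for Terb2 and 3.89 for Terb1, and the limma log2 differences were -1.81 (SE 0.13), -1.26 (SE 0.10) and -1.33 (SE 0.22), with adjusted p of 2.054e-07, 6.806e-07 and 0.000552. With a pseudocount of 0.1 in place of 1, the difference averaged over AOS levels was -3.13 for Majin, -3.22 for Terb2 and -3.53 for Rad21l, and -1.94 for Terb1. As ratios of the means of 9 samples, the levels without busulfan were 10.7 times those with it for Majin, 17.9 times for Terb2 and 22.2 times for Rad21l, so the log2 differences understate these ratios with either pseudocount. The Kash5 level per Terb1 level went from 3.18 ± 0.467 in A0 to 5.93 ± 0.552 in B0, and per Majin level from 4.16 ± 0.573 to 34.1 ± 10.9 (SD, n = 3), so the outer bridge gene and the attachment genes did not keep their proportions.

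Of the proteins that receive the telomeres at the envelope, SUN1 is also made in somatic cells and KASH5 is germ cell specific. Sun1 had 24.53, 21.16 and 22.60 FPKM in A0 and 20.25, 23.34 and 19.20 in B0, with overlapping ranges and a log2 difference of -0.12 (95% interval -0.31 to 0.07). Averaged over AOS levels the Sun1 difference was -0.13 (SE 0.05), with adjusted p = 0.0522 by limma and 0.0212 by an exact permutation test that exchanged the busulfan labels within each AOS level (8000 divisions, two-sided), so the tests fell on opposite sides of 0.05 for a ratio of means of 1.10. Kash5 had 15.77, 9.88 and 13.97 FPKM in A0 and 6.69, 7.76 and 3.96 in B0 (log2 difference -1.01, SE 0.26, adjusted p = 0.0171 by limma), and it was not called without A0 replicate 1, A0 replicate 3 or B0 replicate 3, at adjusted p between 0.0662 and 0.0937 by limma. In BA50 the Kash5 values were 8.24, 18.49 and 13.99 FPKM, and those of A50 18.97, 20.78 and 17.66, so that the ranges met and the difference of -0.53 was not called (adjusted p = 0.179 by limma). It was -0.23 without BA50 replicate 1 and -0.77 without BA50 replicate 2, and was called in neither. Kash5 was 1 of the genes that the study displayed from these same samples, under the older name Ccdc155, so its values are no independent evidence of a direction. In the exact permutation test, 7 of the 10 genes reached 0.00025, the smallest p it can give (adjusted p = 0.00157), Kash5 had 0.0005 and Rec8 0.398, and 9 of the 10 were called lower, Sun1 among them (25.3% of all genes tested were called lower by this test). Any gene with all 9 busulfan samples below all 9 others reaches that smallest p, and 9.66% of all genes tested had this order. Smc1b reached it without this order, because the labels were exchanged within each AOS level. The share of all genes at the smallest p is thus above 9.66% and is not given, so the count of 7 cannot be set against it.

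**Figure D3:**
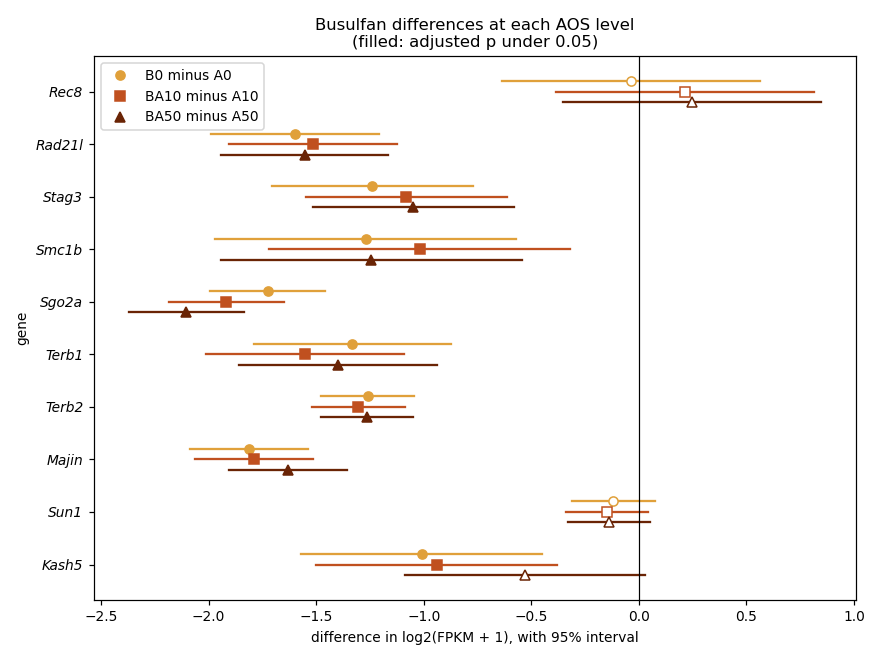
Busulfan differences of the 10 genes in log2(FPKM + 1) with 95% intervals from limma, for B0 minus A0, BA10 minus A10 and BA50 minus A50 (3 samples in each group, filled markers at an adjusted p under 0.05). The 8 genes other than Rec8 and Sun1 lie between -0.53 and -2.10 at each AOS level, and the intervals of Rec8 and Sun1 include 0 at each.

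Other genes of the same machinery had smaller median differences. Over all AOS levels, 11 of 17 somatic cohesin genes and cohesin regulators were lower with busulfan and 2 were higher, with a median of -0.41. Among all 15790 genes tested, 24.8% were lower and 2097 were higher. The largest were Esco2, a cohesin acetyltransferase, at -1.66 (SE 0.06), Espl1, the separase that cuts kleisins, at -1.51 (SE 0.10), its inhibitor Pttg1 at -0.91 (SE 0.09), and Sgo1 at -0.65 (SE 0.07). Of 15 shelterin, envelope and dynein genes that work with the tethering complex, 7 were lower and 1 higher, with a median of -0.18. Cdk2, the kinase found at meiotic telomeres, was at -1.15 (SE 0.08), the shelterin gene Tinf2 at -0.82 (SE 0.06), the lamin gene Lmnb1 at -0.66 (SE 0.09) and Terf1 at -0.52 (SE 0.08). Sun2, Syne1 and Syne2, which form bridges through the envelope in other cells, had differences of 0.06, 0.12 and 0.06, with adjusted p of 0.67, 0.40 and 0.76 by limma.

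The markers of the cell types in the testis differed in their busulfan values, given here as the average over AOS levels. In this average 24.8% of all 15790 genes tested were called lower and 2097 genes higher. Of 15 early spermatocyte markers tested, 13 were lower with busulfan, with a median of -1.99 and Hormad1 (-3.74, SE 0.12), Sycp3 (-3.28, SE 0.10), Tex12 (-2.77, SE 0.09) and Sycp2 (-2.70, SE 0.12) the farthest, all of them genes of the meiotic chromosome axis or of the synaptonemal complex. The late spermatocyte markers had a median of -0.78 with 11 of 13 lower, among them Piwil1 (-3.44, SE 0.13). In the spermatogonia list 8 of 12 were lower and 1 higher, with a median of -1.20, close to the -1.23 of the 10 genes. Stra8, a switch for meiotic entry, went from a mean of 24.5 FPKM to 0.0344. Of the 17 spermatid markers, 15 were not called, with a median of 0.38, 1 was higher (Tssk6, 0.54, SE 0.20) and 1 was lower (Tex101, -5.56, SE 0.07). Sertoli cell and Leydig cell markers had medians of 0.21 and 0.34, with 1 of 11 and 0 of 8 lower and 1 and 2 higher, the higher ones being Inha (0.48, SE 0.15) for Sertoli cells and Star (0.75, SE 0.12) and Nr5a1 (0.40, SE 0.11) for Leydig cells. Markers of the labelled tissue were present in quantity, with means without busulfan of 2440 FPKM for Clu of Sertoli cells, 381 for Insl3 of Leydig cells and 235 for Odf1 of spermatids. The part of such shifts in the 10 genes was not tested.

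**Figure D4:**
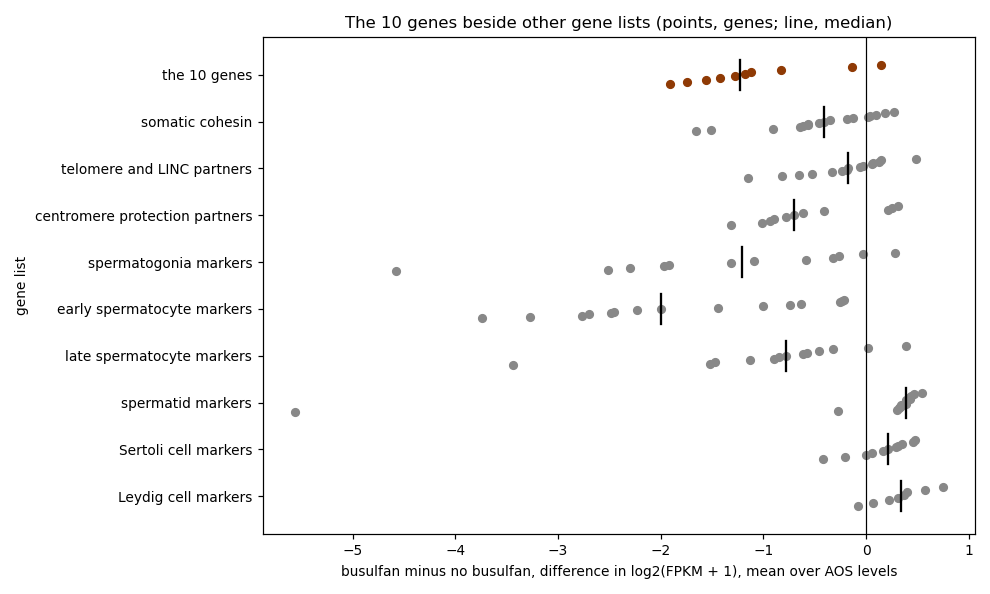
Busulfan difference in log2(FPKM + 1), averaged over the AOS levels, of the 10 genes and of the tested genes of 9 other lists (points, genes; line, median). The median of the 10 genes, -1.23, lies closest to that of the spermatogonia markers (-1.20). The early and late spermatocyte markers have medians of -1.99 and -0.78. Rec8 (0.14) and Sun1 (-0.13) lie near 0, and the medians of the spermatid, Sertoli and Leydig cell markers lie above it.

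Group means fell in the order A50, A10, A0, BA50, BA10, B0 for 6 of the 10 genes, which were Stag3, Smc1b, Sgo2a, Terb2, Majin and Sun1 (6.02% of all genes tested had this order). All A0 samples were above all BA50 samples for 6 of the 10, Rad21l, Stag3, Sgo2a, Terb1, Terb2 and Majin (24.6% of all genes). All A10 samples were above all A0 samples for 3, Smc1b, Sgo2a and Terb1 (7.81%). The samples of BA50, BA10 and B0 were fully apart in that order for Majin alone of the 10 (0.139%). Among the 6 genes with the common order, all other neighbouring groups overlapped.

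The genes with profiles most like the mean of the 10 were found by the root mean square distance of their centred log2 values over the 18 samples. They were Wdr35 (0.079), Fancd2 (0.104), Bub1 (0.107), Ncapd2 (0.108) and Tacc3 (0.11), where the median over all genes tested was 0.66. Among the 10 themselves the distance to that mean was smallest for Stag3 (0.141) and Terb2 (0.193) and largest for Rec8 (0.655) and Sun1 (0.509).

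The AOS comparisons ask whether the oligosaccharide in the culture medium went with a change in these genes, in testes without and with earlier busulfan. None of the 10 was called in any of the 4 comparisons by limma at an adjusted p under 0.05, where 0.0% of all genes tested were called higher in A10, A50 and BA10 and 0.00633% in BA50. In A50 compared to A0 all 10 differences were above 0 (6571 of the 15790 genes tested were), with a median of 0.37 beside -0.06 over all genes tested. At an unadjusted p under 0.05, 2 of the 10 were higher in A50, Sgo2a and Stag3 (9.85% of all genes). Some germ cell lists moved the same way in A50, but not all. The late spermatocyte markers had 13 of 13 differences above 0 with a median of 0.60 and 9 higher at an unadjusted p under 0.05. Their sum was 2517 to 2647 FPKM beside 1277 to 1998 in A0. All 6 of the general germ cell markers were above 0 (median 0.55, sums 748 to 829 beside 439 to 611 FPKM), and 14 of 16 early spermatocyte markers were, with a median of 0.22. Of 14 spermatogonia markers, 10 were below 0, with a median of -0.09. So were 11 of 12 Sertoli cell markers (median -0.27) and all 8 macrophage markers (median -0.52). The part of these shifts in the 10 genes was not tested. In A10 compared to A0 only Sgo2a was higher at an unadjusted p under 0.05 (4.51% of all genes). There 9 of the 10 differences were above 0 (6653 of the 15790 genes tested were). A0 is the control of A10, A50 and B0 alike, and B0 that of BA10 and BA50, so these comparisons are not independent of each other.

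Sgo2a showed the clearest order without busulfan. It had 10.68, 11.58 and 12.35 FPKM in A10 and 13.98, 14.04 and 12.29 FPKM in A50, all above the 6.96 to 9.95 of A0. The log2 difference of A50 from A0 was 0.61 (95% interval 0.34 to 0.88), with adjusted p = 0.151 by limma. Stag3 had 76.88, 76.40 and 69.05 FPKM in A50, above the highest A0 sample at 61.17, a difference of 0.49 (95% interval 0.02 to 0.96, adjusted p = 0.309 by limma). Smc1b, Terb1 and Kash5 were also apart between A50 and A0, which made 5 of the 10 (17.6% of all genes tested were apart and higher in A50). Terb2, Majin, Rad21l, Rec8 and Sun1 overlapped, with differences between 0.01 for Rad21l and 0.33 for Rec8.

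With busulfan, AOS at 50 μg/mL again went with differences above 0 for all 10 in BA50 compared to B0 (7055 of the 15790 genes tested were above 0). Their median was 0.34 beside -0.04 over all genes tested. In that comparison the 13 late spermatocyte markers had a median of 0.54, the 17 spermatid markers 0.93 and the 6 general germ cell markers 0.46, with all of them above 0. The 16 early spermatocyte markers had a median of 0.145 with 3 below 0, and the 14 spermatogonia markers 0.051 with 6 below 0. At an unadjusted p under 0.05 the genes Kash5, Stag3, Majin and Rec8 were higher (12.7% of all genes), and in BA10 compared to B0 none was (1.89%). In BA10 all 10 differences were above 0 as well (7006 of the 15790 genes tested were), with a median of 0.20. The Kash5 mean went from 6.14 ± 1.96 FPKM in B0 to 8.20 ± 1.44 in BA10 and 13.6 ± 5.14 in BA50, beside 13.2 ± 3.02 in A0 (SD, n = 3). The Kash5 log2 difference of BA50 from B0 was 1.00 (95% interval 0.44 to 1.56, adjusted p = 0.102 by limma). Without BA50 replicate 1 it was 1.30 and was called, with Stag3 at 0.85, at adjusted p of 0.0363 and 0.0466 by limma, in a fit that called 3.93% of all genes tested higher. The difference of the AOS effects, BA50 from B0 against A50 from A0, was 0.48 for Kash5 (95% interval -0.31 to 1.27) and was not called for any of the 10 genes by limma (0.0% of all genes tested). At an unadjusted p under 0.05 it was lower for 1 of the 10, Sgo2a (-0.38, adjusted p = 0.792 by limma), where 3.36% of all genes were.

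Majin had its 3 busulfan groups fully apart, with 0.18 in each B0 sample, 0.23, 0.24 and 0.38 FPKM in BA10 and 0.39, 0.56 and 0.54 in BA50. The difference of BA50 from B0 was 0.34 (adjusted p = 0.142 by limma), or 1.08 with a pseudocount of 0.1 (adjusted p = 0.0718). Terb2 was at 0.11, 0.18 and 0.15 FPKM in BA50, also above all B0 samples, with a difference of 0.13, or 0.75 with a pseudocount of 0.1 (adjusted p = 0.121 by limma). With the highest BA50 samples at 0.56 and 0.18 FPKM, Majin and Terb2 were still far below the lowest samples without busulfan, 2.58 and 1.36. Rad21l, at 0.09, 0.13 and 0.17 FPKM, overlapped with B0. In all, 4 of the 10 were apart and higher in BA50, the others being Stag3 and Kash5 (11.2% of all genes tested).

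**Figure D5:**
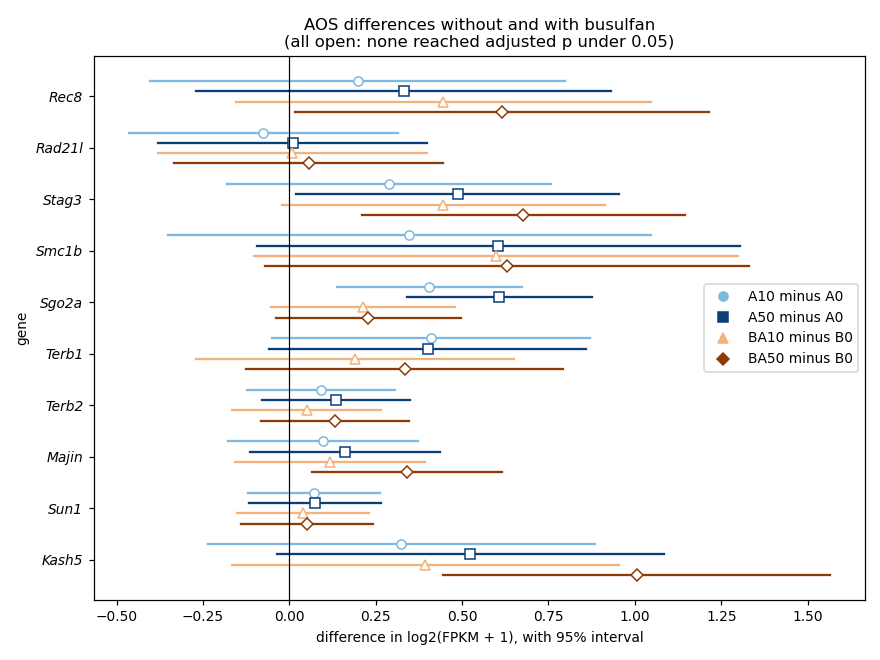
AOS differences of the 10 genes in log2(FPKM + 1) with 95% intervals from limma, for A10 and A50 minus A0 and for BA10 and BA50 minus B0 (3 samples in each group). No difference passed an adjusted p under 0.05, and Kash5 in BA50 minus B0, at 1.00, is the farthest from 0.

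Several libraries also differed in RNA of other kinds. BA50 replicate 2 had the highest busulfan value of Stag3, Smc1b, Sgo2a, Terb1, Terb2, Majin and Kash5, and its 17 spermatid markers summed to 12110 FPKM, beside 5686 and 6917 in the other BA50 samples and 2737 to 3886 in B0. Fat cell markers summed to between 207 and 887 FPKM in B0, beside 62.6 to 84.9 in A0 and 101 to 138 in BA50, and simple epithelium markers to between 81.4 and 216 FPKM in B0, beside 26.2 to 48.9 and 20.7 to 29.6. The early spermatocyte markers summed to 129 to 195 FPKM in B0 and 179 to 309 in BA50. In BA10 the fat cell sums were 68.0 to 123 FPKM and the epithelium sums 17.8 to 30.1, beside fat cell sums of 42.5 to 61.0 in A10 and 61.0 to 63.2 in A50. The part of this RNA in the differences of the 10 genes was not tested. In 1 fit BA50 replicate 2, BA10 replicate 2 and A10 replicate 3 were left out, a choice made after seeing the data. Each had the most spermatid RNA in its group. The libraries with the most in A0 (replicate 1, 5040 FPKM), A50 (replicate 2, 4747) and B0 (replicate 2, 3886) were kept. The comparison of BA50 with B0 was thus trimmed on 1 side only. In that fit the difference of BA50 from B0 was 0.76 for Kash5, 0.54 for Stag3 and 0.29 for Smc1b. In the average over AOS levels 9 of the 10 genes, Sun1 included, were called lower with busulfan, beside 27.8% of all genes tested in that fit. The FPKM of a sample summed to between 463970 and 511274, and the number of reads behind a value is unknown, so only the spread among replicates speaks for its precision.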

How the data were processed

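RNA-seq values of 18 cultured testis samples were analyzed. The authors prepared oligo(dT)-selected libraries and deposited FPKM per gene with 2 decimals. The submitters' processing notes name HISAT, Bowtie2 and RSEM without roles and the build GRCm38.p5, whereas the supplementary methods name SOAPaligner and RPKM, so the tool behind the values is unsure. No count test was run, because the values are not counts. The AOS doses follow the sample labels; the design text gives them per kg body weight.

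NCBI gene numbers were matched to symbols through RefSeq (20656 of 20811), and gene structures came from GENCODE. Values were tested as log2(FPKM + 1) in limma 3.58.1 (R 4.3.3; eBayes with trend), with all 18 samples, 6 group means and 12 residual degrees of freedom, over the 15790 genes that reached 1 FPKM in 3 or more samples, and p-values were adjusted over all of these by Benjamini-Hochberg. The threshold was an adjusted p of 0.05. The rule of the study (adjusted p of at most 0.001 and a log2 change of at least 1) was stated for a method on reads without replicates and was kept as an alternative. The exact permutation test exchanged busulfan labels within each AOS level for every gene. Both were tested on simulated data. Python 3.11.15, pandas 2.3.3, NumPy 2.4.6 and matplotlib 3.10.9 were used.

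The 10 genes and the other lists were chosen with earlier results of these data known. From each other list up to 4 genes with the largest busulfan difference were named, and the 5 genes nearest to the mean profile. A gene or envelope partner named beyond this rule (Rad21, Smc1a, Smc3, Stag1, Stag2, Sun2, Syne1, Syne2, Kctd18, Sgo2b) was added as the counterpart or neighbour of a gene described. The list gene Speedya was not analysed here, and the lists of all germ cell, peritubular myoid and macrophage markers had medians of -2.10, 0.08 and 0.02 in the busulfan average, with 6 of 6, 0 of 6 and 0 of 8 lower. Same-numbered samples of 15 pairs of groups were compared by the correlation of their deviations from the group means: all 3 numbers were over 0.1 in 2 of the 15 pairs, B0 with BA50 (0.56, 0.42 and 0.14) and BA10 with BA50. The labels do not say that a number marks a shared culture.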

Additional observations from a re-analysis of the deposited data

How the results depend on the processing

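Results were recomputed with the replicate block, with the compared groups alone, a pseudocount of 0.1, no filter, a mean of at least 5 FPKM, values rescaled to equal sums, quantile normalization, eBayes without trend, other call rules and each sample left out, with robust eBayes, the late germ cell libraries left out and fits of the busulfan samples alone added after seeing the data. With the replicate block, 8 of the 10 genes were lower in B0 than in A0, 8 in BA10 than in A10, 7 in BA50 than in A50 and 8 in the average, as without it, and 0 were called in the AOS comparisons. Because same-numbered B0 and BA50 samples deviated together, the block was also fitted within the busulfan samples, where 0 of the 10 were called in BA50 or BA10 against B0 and the smallest adjusted p for BA50 by limma was 0.0916 (0.228 there without the block). By the call rule of the study, 5 were lower in B0 than in A0 and 5 in BA10 than in A10, in both Rad21l, Sgo2a, Terb1, Terb2 and Majin. The same genes passed it in BA50 against A50, joined by Stag3 and Smc1b in the average. With a mean of at least 5 FPKM, which left 6 of the 10 in the test, the counts were 4, 4, 3 and 5. For the replicate block, these settings and the counts with 1 sample left out, the share of all genes called is not given. The counts can thus not be set against all genes. When 1 sample was left out, the counts ran from 6 to 8 in B0 and A0, 6 to 8 in BA10 and A10, 6 to 7 in BA50 and A50, 8 to 9 in the average and 0 to 2 in BA50 and B0. Smc1b and Kash5 were the calls that came and went: Kash5 in B0 was not called without A0 replicate 1, A0 replicate 3 or B0 replicate 3 (adjusted p 0.0863, 0.0662 and 0.0937 by limma), nor in the fit of the compared groups alone (0.0581), and without the late germ cell libraries it was called in BA50 against A50 (-0.77) but not in BA10 against A10 (-0.90, adjusted p 0.0564 by limma). Smc1b in B0 lost its call without A0 replicate 1 or 3 or B0 replicate 1 or 3 (0.065 to 0.0764 by limma), and Smc1b in BA10 in the fit of the compared groups alone (0.0917) and with no filter (0.0574). With 1 sample left out, Smc1b was also not called in BA50 in 3 of 18 fits (without A50 replicate 1 or 2 or BA50 replicate 1), and Kash5 in BA10 in 2 of 18 (without A10 replicate 3 or BA10 replicate 1). Sun1 in the average was called lower in 4 of 9 other fits and in 4 of 18 with 1 sample left out, at -0.13 to -0.18 where called. Rad21l, Stag3, Sgo2a, Terb1, Terb2 and Majin kept their busulfan calls in each of these fits at an adjusted p under 0.05 in which they were tested.

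Differences near 0 changed sign. Rad21l in A50 against A0 was -4e-05 with a pseudocount of 0.1 and ran from -0.20 to 0.20 with 1 sample left out. Rec8 in B0 against A0 was 0.078 after quantile normalization and ran from -0.17 to 0.14. In A10 against A0, Rad21l was 0.01 after quantile normalization and 0.046 without the late germ cell libraries, Rec8 was -0.04 without them, and with 1 sample left out Rad21l ran from -0.24 to 0.046, Rec8 from -0.04 to 0.41 and Majin from -0.002 to 0.25. Over the same fits Rec8 in BA10 against A10 ran from -0.064 to 0.45, Sun1 from -0.016 to 0.12 in BA10 and from -0.0048 to 0.13 in BA50 against B0, and the Kash5 difference of AOS effects at 10 μg/mL from -0.17 to 0.25. The cause was not tested. Neither rescaling nor quantile normalization moved the median of all genes by more than 0.1 in a comparison. Groups of 3 and unknown depth limit all of these values, and no exact test of 3 samples against 3 can go below 0.1.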
